A study of Rattus norvegicus with 4 samples.

Results

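Cd8-positive T cells were picked out of a single-cell RNA-seq matrix of the rat hippocampus by the UMIs each cell held. They were chosen by their own UMI counts of Cd3, Cd8 and the genes of other cell types, where a UMI is 1 counted RNA molecule. Cells entered with a minimum of 500 UMIs and 300 genes and no more than 20% mitochondrial UMIs. A kept cell counted as Cd8-positive when it held at least 2 UMIs of Cd3d, Cd3e and Cd3g together and at least 1 UMI of Cd8a or Cd8b. It was left out when it held over 5 UMIs of the microglial C1q genes, over 5 of the myelin genes Mag, Mog and Mobp, or over 3 of the endothelial genes Cldn5 and Flt1. These conditions found 483 cells among 28879 kept cells, which came from 31638 barcodes. Another 347 cells met every condition except the one on Cd8, and these Cd8-negative T cells served as the comparison.

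The study used wild type male Sprague Dawley rats of 10 to 12 months, whose hippocampi were dissociated with an enzymatic kit, treated to lyse red cells and run on the 10x Genomics 3' v3 chemistry. Its 4 titled samples are NC, a negative control, MCAO, with unilateral occlusion of the middle cerebral artery, and DEPR and MD, both labelled with chronic stress. The design text speaks of 20 rats in 2 groups of 10 that all underwent the occlusion, one group then receiving chronic stress, with 5 hippocampi per group sequenced. It does not describe an unoccluded group, and the labels do not say how many rats entered each library or whether MD had an occlusion. The cells stand in 1 matrix in which the barcodes carry a suffix from 1 to 4. No source used here ties a suffix to a title, so the cells of 1 suffix are called a barcode set, and no value below belongs to NC, MCAO, DEPR or MD. A set is 1 library, so nothing replicates a difference between sets, and the intervals printed reflect only counting error.

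A CD8 T cell recognises peptides on MHC class I through its T cell receptor, whose signal runs through the CD3 chains, with CD8 as co-receptor. It kills by releasing perforin and granzymes or by displaying Fas ligand, and it secretes chemokines such as CCL5, CCL4, CCL3 and XCL1. The healthy brain holds few such cells, and after stroke and with age they are found among the lymphocytes of the brain. In the rat, natural killer cells can carry the CD8 alpha chain, so the CD3 condition matters for the identity of the cells.

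Several kinds of cells stood apart within both classes and are given before the results. Over 5 UMIs of the B and plasma cell markers were held by 24 of the 347 Cd8-negative cells, 19 of them in set 4. These 24 cells had a median of 26395 UMIs and supplied 33.0% of all UMIs of the Cd8-negative class, and 53.2% of those in set 4. Immunoglobulin genes took 21.0% of the UMIs of Cd8-negative cells and 0.457% of those of Cd8-positive cells. Among the 483 Cd8-positive cells, 1 cell of set 4 held B and plasma cell markers and 3 cells held over 5 UMIs of astrocyte markers. The 3 astrocyte-marked cells all stood in set 1 and held 25.2% of its Cd8-positive UMIs. With the 1 astrocyte-marked Cd8-negative cell, 29 cells are named below as cells with markers of another type, and the counts of called genes and the main genes are given with and without them. Doublets were kept, and the caller Scrublet marked 1 Cd8-positive and 1 Cd8-negative cell. Of the barcode sequences, 96 occurred in more than 1 set, and 2 Cd8-positive cells carried such a sequence. The median depth was 3845 UMIs per Cd8-positive cell and 3849 per Cd8-negative cell, but 3 Cd8-positive and 19 Cd8-negative cells held over 20000 UMIs. In set 4 the medians were 3836.5 and 4334.

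Cd8-positive T cells made up 1.67% of kept cells. They were 0.900% of kept cells in set 1 (59 cells, exact binomial 95% interval 0.686 to 1.16%) and 0.945% in set 2 (78 cells, 0.748 to 1.18%). The share was 2.18% in set 3 (116 cells, 1.81 to 2.61%) and 2.63% in set 4 (230 cells, 2.30 to 2.98%). The intervals of sets 3 and 4 lie above those of sets 1 and 2, and within each of these pairs the intervals overlap. Cd8-negative T cells did not follow the same course, at 1.31%, 0.958%, 1.24% and 1.32% of kept cells in sets 1 to 4.

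Among all 830 Cd3-positive cells, 58.2% held a Cd8 UMI (interval 54.8 to 61.6%). By set the Cd8-positive share of T cells was 40.7%, 49.7%, 63.7% and 66.5%. Without the 29 cells with markers of another type it was 40.0%, 49.7%, 64.8% and 70.5%, so the order of the sets was the same. Depth also differed between the sets, with median UMIs per Cd8-positive cell of 3659, 3109, 4377.5 and 3836.5, and a deeper cell is more likely to show a Cd8 UMI. Among the 64 T cells with exactly 1 Cd8 UMI the median depth was 2945, against 4104.5 in the 338 with 3 or more and 3849 in the 347 with none. The part of depth in the shares was not tested.

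**Figure D1:**
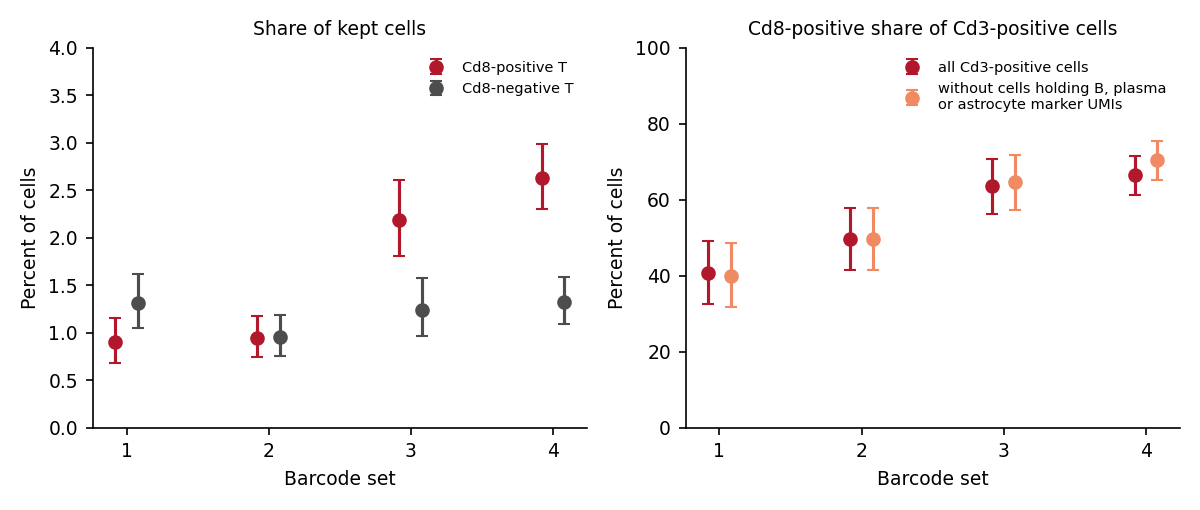
The left panel plots Cd8-positive and Cd8-negative T cells as a percent of kept cells in barcode sets 1 to 4, and the right panel the Cd8-positive percent of Cd3-positive cells, with and without the cells holding markers of another type. Bars are exact binomial 95% intervals, and the Cd8-positive share is 2.18% and 2.63% of kept cells in sets 3 and 4 against 0.900% and 0.945% in sets 1 and 2.

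The chains that chose the cells are described without a test. The median Cd8-positive cell held 10 UMIs of the Cd3 chains and 4 of Cd8. Cd8a alone was seen in 280 cells, both Cd8a and Cd8b in 190 and Cd8b alone in 13. Cd8b encodes the beta chain that pairs with Cd8a on conventional CD8 T cells, and cells with at least 1 Cd8b UMI made up 35.6%, 24.4%, 48.3% and 46.5% of the Cd8-positive cells of sets 1 to 4. Per Cd8a UMI there were 0.136, 0.0870, 0.221 and 0.196 Cd8b UMIs, a ratio within the same cells that was lowest in set 2.

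Cells just inside the Cd8 threshold held the marker genes about as often as those well inside, and cells just outside did not. Of the 64 cells with 1 Cd8 UMI, 98.4% held a Ccl5 UMI and 0% a Cd40lg UMI, against 93.8% and 0.888% of the 338 cells with 3 or more. Of the 347 T cells with no Cd8 UMI, 19.0% held Ccl5 and 41.8% Cd40lg, which encodes the CD40 ligand of helper T cells. At the Cd3 threshold, 11 cells had exactly 2 Cd3 UMIs, of which 90.9% held Ccl5, and only 8 cells with a Cd8 UMI had exactly 1. Another 78 cells with a Cd8 UMI had no Cd3 UMI and were outside the rule, and 33.3% of them held Ccl5. The limits on other cell types left out 35 cells for C1q, 14 for myelin and 13 for endothelial UMIs that met the rest of the rule, and 85 of the 483 held 2 to 5 C1q UMIs.

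The label was checked against markers that the rule did not use. All 8 T cell markers in the matrix other than the Cd3 chains had at least 1 UMI in these cells, among them Lck, Cd2, Cd5 and Cd6. The same 8 markers also had UMIs in the 21 NK-like cells described below, so their detection cannot tell T cells from NK cells. By this standard 12 of 12 microglial and 9 of 9 oligodendrocyte markers were detected in the Cd8-positive cells too. Detection of at least 1 UMI is therefore a weak check of the label. Cd4 was seen in 1 of 483 cells, and Cd4 or Cd40lg in 5 (1.04%) against 167 of 347 Cd8-negative cells (48.1%). Ccl5 or Gzmk, 2 of the markers the label came with, was seen in 463 cells (95.9%). As a check on free RNA, a Cd8 UMI was seen in 0.550% of the 12538 kept cells with over 5 C1q UMIs and no Cd3 UMI, called C1q-rich cells below, whose median depth was 4906.5 UMIs.

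Markers of other cell types, apart from those of NK cells, were mostly low but not all absent in these cells. The part of any of these markers in the results was not tested. The summed B and plasma cell markers (7 of 8 detected, Pax5 at 0) stood at 5.72 to 7.13 CPM in sets 1 to 3 and at 271 in set 4. CPM is a gene's UMIs divided by all UMIs of the class in that set, times 1000000. Astrocyte markers (6 of 8 detected, Slc1a2 and Fgfr3 at 0) stood at 1621 CPM in set 1 and at 10.7 to 41.5 in the other sets. Microglial markers (12 of 12 detected) ranged from 199.7 to 649.8 CPM, with the highest value in set 2, and oligodendrocyte markers (9 of 9) from 234 to 624, with the highest in set 3. Erythroid markers (3 of 3) stood at 363 and 518 CPM in sets 1 and 2 and at 28.5 and 40.7 in sets 3 and 4. Endothelial markers (7 of 7) stood at 96.7 to 146 CPM, against 46.6 to 94.7 in Cd8-negative cells. Pericyte and smooth muscle markers (8 of 8) stood at 17.2 to 50.9 CPM. Border macrophage and monocyte markers (6 of 9) stood at 117 to 316 CPM and helper T cell markers (5 of 5) at 167 to 436. Of 7 neuronal markers 6 were at 0, as were 5 of 8 for dendritic cells, 5 of 8 for neutrophils and 6 of 8 for mast cells. NK cell markers (12 of 12) were not low and summed to 2653 to 3733 CPM. They summed to 272 to 905 CPM in Cd8-negative T cells and to 9500 to 21312.5 in the NK-like class given next. The T cell markers, Cd3 chains included, summed to 3253 to 5373 CPM in Cd8-positive cells. The 21 cells with at least 3 UMIs of Nkg7, Klrd1 and Ncr1 together and no Cd3 UMI, an NK-like class, included 17 with Cd8a and 0 with Cd8b.

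To compare the 2 classes of T cells, UMIs were summed per class and set, and the CPM of Cd8-positive cells was divided by that of Cd8-negative cells within each set. A gene was called when the ratio was at least 2-fold in every set with an exact interval that left out 1. Of 2944 genes measured, 41 were higher in Cd8-positive cells, 1.39% of the genes tested, and 11 were lower, 0.374%. The median log2 ratio over all genes was 0.31, and with TMM scaling it was 0.04. Without the 29 cells with markers of another type it was 0.02. The log2 ratios below are therefore medians over the 4 sets with 0.31 taken off, unless said to be without those cells, where 0.02 is not taken off. The share of called genes that were higher was 78.8%, against 65.9% with TMM scaling (27 higher, 14 lower) and 58.5% without the 29 cells (24 higher, 17 lower). Of the 41 higher genes 23 were still called without the 29 cells, and of the 11 lower genes 10 were. Leaving out set 2 gave 69 higher and 24 lower genes, leaving out set 4 gave 17 lower, and thinning each cell to 1000 UMIs left 11 and 3. The shares of 1.39% higher and 0.374% lower are the background for the list counts below. How many of all genes had values that did not overlap between the classes was not counted. Statements on overlap below therefore describe single genes only.

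Genes of killing were among those higher in Cd8-positive cells. Nkg7, a membrane protein of cytotoxic granules, stood at 961, 1210, 1234 and 965 CPM in Cd8-positive cells of sets 1 to 4 and at 222, 196, 93.0 and 43.3 in Cd8-negative cells. No Cd8-positive value fell within the Cd8-negative range, and 89.4% against 14.99% of cells held a UMI. The ratio in the set where it was smallest was 4.33 (95% interval 3.42 to 5.54), and the log2 ratio over sets was 2.87, or 2.95 without the cells of another type.

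Prf1, which encodes perforin, the protein that opens pores in the target membrane, stood at 266, 346, 276 and 223 CPM against 29.9, 45.4, 54.2 and 45.5. Its log2 ratio was 2.33, or 2.41 without the cells of another type, and 55.3% of Cd8-positive cells held a UMI against 15.3%. Faslg, the ligand of the death receptor Fas, stood at 366, 619, 458 and 433 CPM against 125, 161, 98.2 and 65.0. Its log2 ratio was 1.78, or 1.83 without those cells, and all 4 Cd8-positive values lay above all 4 Cd8-negative ones, as they did for Prf1. Ctsw, a cysteine protease of cytotoxic lymphocytes, was at 452, 657, 1341 and 1168 CPM against 212, 231, 276 and 173 (log2 ratio 1.59). Ctsw was called at 2-fold in every set, but not with TMM scaling. Gzmbl2, a granzyme B-like gene, stood at 169, 162, 218 and 153 CPM against 19.9, 35.0, 2.58 and 9.75, and was also higher (log2 ratio 3.22). Its UMIs came mostly from Cd8-positive cells, with 122 against 1 in set 3. Reaching the minimum of 20 UMIs of both classes thus almost fixed its call.

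The promoters of 4 genes, 3 genes of killing and the chemokine Xcl1 described below, are shown because they were higher in every set with and without the 29 cells. They had the most UMIs among such genes that matched RefSeq (build GRCr8) by symbol. Each line is the 250 bases before the gene's start, 5' to 3' on the gene's strand. Capitals mark a RUNX motif (TGTGGT) or a T-box motif (AGGTGT) on either strand, both classes of factor being known for T cells. Nkg7 lies at chr1:102981247-102981496 (plus strand) and Xcl1 at chr13:79785441-79785690 (minus strand). Faslg lies at chr13:76695504-76695753 (minus strand) and Prf1 at chr20:29788790-29789039 (plus strand).
Nkg7: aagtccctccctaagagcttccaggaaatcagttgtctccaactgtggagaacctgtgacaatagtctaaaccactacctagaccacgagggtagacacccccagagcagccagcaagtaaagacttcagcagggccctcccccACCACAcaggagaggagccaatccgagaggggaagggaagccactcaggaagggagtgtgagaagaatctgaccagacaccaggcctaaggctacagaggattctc
Xcl1: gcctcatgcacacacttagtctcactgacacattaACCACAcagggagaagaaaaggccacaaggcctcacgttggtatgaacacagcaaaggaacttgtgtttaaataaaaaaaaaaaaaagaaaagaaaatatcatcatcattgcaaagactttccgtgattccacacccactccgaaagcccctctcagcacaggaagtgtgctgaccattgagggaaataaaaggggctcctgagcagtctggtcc
Faslg: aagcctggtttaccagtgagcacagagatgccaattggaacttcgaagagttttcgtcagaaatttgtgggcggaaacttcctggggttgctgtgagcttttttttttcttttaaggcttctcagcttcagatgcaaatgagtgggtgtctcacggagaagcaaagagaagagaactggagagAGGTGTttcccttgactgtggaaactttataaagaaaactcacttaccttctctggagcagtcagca
Prf1: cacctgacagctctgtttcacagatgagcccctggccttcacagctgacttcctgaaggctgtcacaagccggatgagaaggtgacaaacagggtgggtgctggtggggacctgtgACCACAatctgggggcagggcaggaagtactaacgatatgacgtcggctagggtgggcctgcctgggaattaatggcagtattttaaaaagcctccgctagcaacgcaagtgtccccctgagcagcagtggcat
The capitals begin 106 bases before the start of Nkg7, 215 before Xcl1 and 134 before Prf1 for the RUNX letters, and 67 before Faslg for the T-box letters. Of the 41 higher genes 26 had a promoter in the table, and 11 of these (42.3%) held the RUNX letters. The share was 10.97% of the 2307 measured genes with a promoter and 14.1% of all 27457 promoters of the same length, and 0 of 8 lower genes held them. T-box letters were in 2 of the 26 (7.69%), in 7.59% of measured genes and in 11.4% of all promoters. The AP-1 letters TGANTCA were in 0 of 26, in 4.46% of measured genes and in 6.36% of all promoters. No promoter shown holds matches of both motifs, and a match is a description of these bases, not of binding.

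Granzymes divided. Gzmk, a granzyme with trypsin-like activity and a marker of the label, stood at 1106, 1227, 658 and 624 CPM in Cd8-positive cells against 573, 542, 56.8 and 49.8 in Cd8-negative ones. It missed the call because the ratio was below 2-fold in set 1, where the log2 ratio before the shift was 0.95, and it passed without the cells of another type (log2 ratio 1.94). Gzmm, a granzyme with a preference for methionine, stood at 28.6, 159, 808 and 1088 CPM against 42.4, 45.4, 56.8 and 35.7. In set 1 it was thus not higher in the Cd8-positive class, and it was not called. Gzma had too few UMIs to be tested, and Gzmb, Gzmc and Gzmf were listed at 0 in every barcode of the matrix. Of the list of granule and killing genes, 3 of 9 measured members were higher (Nkg7, Prf1 and Ctsw) and 0 lower. Of all genes tested 1.39% were higher and 0.374% lower. The list median log2 ratio was 1.59, against 0 for all genes once the shift is taken off.

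The list of killer lectin-like and other NK receptors had the most calls. Of 18 list members in the matrix 9 were measured, and 8 of these were higher in Cd8-positive cells, 7 lectin-like receptors and Cd226. The list median log2 ratio was 2.98, and 7 were higher without the cells of another type. Klrb1c and Klri2 reached the minimum of 20 UMIs of both classes almost only through Cd8-positive cells. In set 1 they had 28 and 50 UMIs there against 1 and 3. Klre1, Klrc3 and Klrc1 reached it mostly through those cells, with 82, 87 and 92 UMIs in set 4 against 3, 2 and 4. For such genes being measured almost fixed the call, so the count does not describe the whole list. Klrd1 reached 20 UMIs in every set in Cd8-negative cells alone. Genes of the lectin-like family have near-identical copies between which reads can be split, so the level of each is uncertain. Klrd1, whose product CD94 pairs with NKG2 chains, stood at 472, 432, 564 and 604 CPM against 49.8, 133, 64.6 and 53.1 (log2 ratio 2.88, or 2.53 without the cells of another type). Klri2 was at 143, 156, 169 and 153 CPM against 7.47, 3.496, 15.5 and 1.08, with only 1 to 6 UMIs per set in the Cd8-negative class. Its smallest ratio was 10.9 (interval 4.84 to 30.5), in set 3. Klrk1, which encodes the activating receptor NKG2D, was at 152, 221, 193 and 157 CPM against 72.2, 76.9, 38.7 and 29.2 (log2 ratio 1.61). Klrc1, Klrc3, Klre1 and Klrb1c were called as well, with log2 ratios of 3.01, 2.98, 3.36 and 3.77, the last with 0 UMIs in Cd8-negative cells of set 3, taken there at 3 counts. Cd226, the activating receptor DNAM-1, was higher at 42.9, 96.8, 96.3 and 92.6 CPM against 14.9, 28.0, 15.5 and 19.5, but had too few UMIs for a test without the 29 cells.

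Chemokines reached the highest levels of any group. Ccl5, one of the markers of the label, stood at 11198, 13318, 20039 and 19065 CPM against 690, 2213, 1274 and 1166, and 95.2% against 19.0% of cells held a UMI. Its ratio was smallest in set 2, at 6.02 (interval 5.53 to 6.56), and the log2 ratio over sets was 3.69, or 3.21 without the cells of another type. Ccl4 stood at 9489, 15911, 16515 and 15981 CPM against 2384, 3377, 2400 and 1499 (log2 ratio 2.20, or 2.28 without those cells). Ccl3 stood at 2727, 4466, 6076 and 5578 CPM against 974, 1021, 1026 and 428 (2.04, or 2.13). Xcl1, a chemokine for cross-presenting dendritic cells, stood at 689, 1431, 808 and 828 CPM against 149, 325, 196 and 63.9 (1.87, or 2.11). For each of these 4 chemokines the Cd8-positive values lay above every Cd8-negative value. Of the 5 measured chemokines 4 were higher (list median 2.04), against 1.39% of all genes tested. Ccl4 was as abundant in cells rich in C1q, at 13625 to 16933 CPM, and Ccl5 was at 7.80 to 20.7 CPM there. The part of free microglial RNA in the Ccl4 level was not tested.

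Inhibitory and adhesion receptors gave few calls. Lag3, an inhibitory receptor that binds MHC class II, stood at 286, 370, 168 and 118 CPM against 62.3, 105, 20.7 and 18.4 (log2 ratio 2.13). It was the only one of 5 measured inhibitory genes called higher, and Tox, a regulator of T cell exhaustion, had a log2 ratio of 0.14. Ctla4 was lower only once the cells of another type were removed (log2 ratio −1.46 without them), at 68.6, 159, 55.3 and 58.0 CPM against 249, 343, 137 and 71.5. Pdcd1, the gene of PD-1, was listed at 0 in every barcode. Of 10 integrins and adhesion genes, 3 were higher, among them Cd96 (154, 249, 259 and 218 CPM against 39.9, 62.9, 62.0 and 31.4) and Spn (177, 169, 166 and 194 CPM against 84.7, 80.4, 38.8 and 53.1). Spn encodes the sialophorin CD43, and it was not called with TMM scaling.

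**Figure D2:**
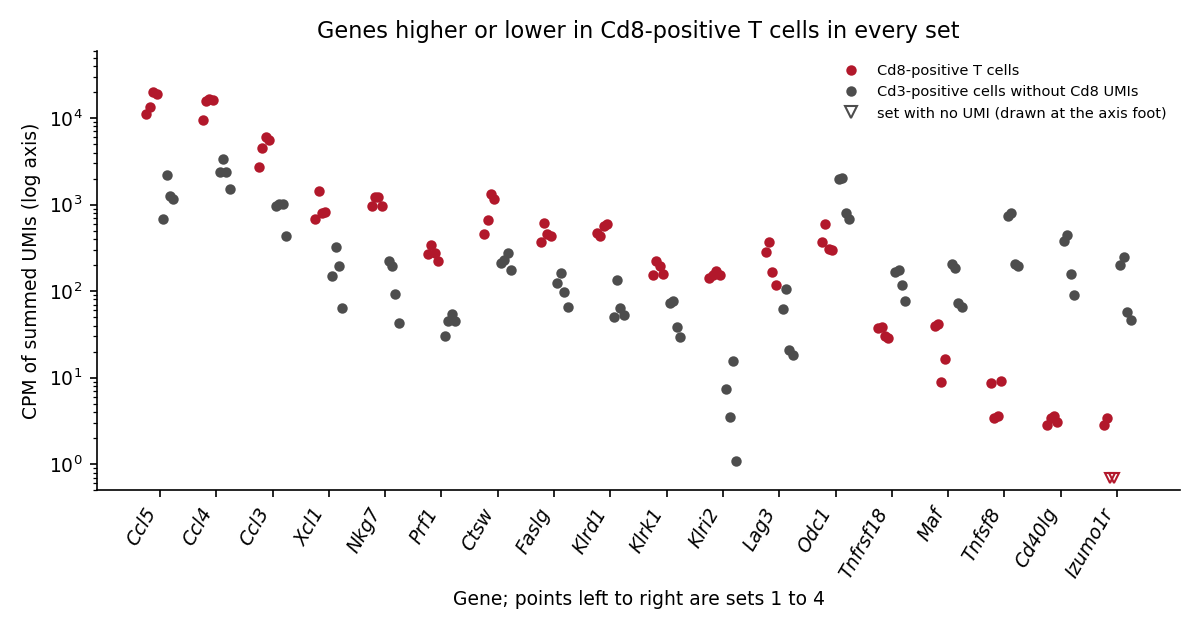
Levels of 18 genes called higher or lower, as CPM of summed UMIs on a log axis, with Cd8-positive T cells in red, Cd8-negative T cells in grey and sets 1 to 4 from left to right within each gene. Open triangles mark sets with no UMI, and for Ccl5 the red points lie at 11198 to 20039 CPM and the grey ones at 690 to 2213.

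Other calls were lost when the 29 cells were removed. Cd27, a co-stimulatory receptor and the only 1 of 14 measured T cell receptor and signalling genes called, stood at 294, 301, 232 and 190 CPM against 89.7, 69.9, 103 and 58.5. Ikzf3, a zinc finger transcription factor of lymphocytes, stood at 117, 118, 105 and 97.7 CPM against 19.9, 31.5, 49.1 and 36.8, and was the only 1 of 13 measured transcription factors called. Without the 29 cells the log2 ratios of Cd27 and Ikzf3 were 1.29 and 1.36, and they were then below the call in at least 1 set. Higher with and without those cells, besides the genes above, were Cd7, a surface protein of T and NK cells (54.3, 156, 203 and 136 CPM against 22.4, 21.0, 62.0 and 10.8), and Jaml, an adhesion molecule that costimulates T cells (62.9, 76.0, 78.5 and 91.6 CPM against 22.4, 21.0, 28.4 and 5.42). With TMM scaling Cd7, Klrk1, Cd27, Cd226 and Ikzf3 were not called.

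Several genes of helper and regulatory T cells were lower in Cd8-positive cells. Of 14 list members in the matrix 8 were measured. Of these 5 were lower and 0 higher (median log2 ratio −2.46), and 6 were lower without the cells of another type. Cd40lg, Tnfrsf4 and Capg reached the minimum of 20 UMIs of both classes almost only through Cd8-negative cells. In set 2 they had 128, 72 and 43 UMIs there against 1, 2 and 1. For such genes being measured almost fixed the call, so the count does not describe the whole list. Cd40lg stood at 2.86, 3.46, 3.57 and 3.05 CPM, from 1 to 3 UMIs per set, against 376, 447, 158 and 91.0 CPM in Cd8-negative cells. Its ratio in set 4, where it was nearest to 1, was 0.0336 (interval 0.0068 to 0.102). Tnfsf8, the CD30 ligand, was at 8.58, 3.46, 3.57 and 9.16 CPM against 737, 804, 207 and 196. For both genes even the highest Cd8-positive value was far below the lowest Cd8-negative one, and both calls stood without the 29 cells. Tnfsf8 too was measured almost only through Cd8-negative cells, with 230 UMIs in set 2 against 1. For both genes being measured almost fixed this result.

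Tnfrsf4, which encodes the co-stimulatory receptor OX40, was at 5.72, 6.91, 1.78 and 0 CPM against 222, 252, 85.2 and 84.5. Izumo1r, the folate receptor 4 of regulatory T cells, was at 2.86, 3.46, 0 and 0 CPM against 202, 248, 56.8 and 46.6. Tnfrsf18, the receptor GITR, was at 37.2, 38.0, 30.3 and 28.5 CPM against 167, 175, 116 and 76.9 (log2 ratio −2.36). All 3 are receptors of activated or regulatory CD4 cells, and the values of the 2 classes did not overlap. Maf, a transcription factor of helper cells, was at 40.0, 41.5, 8.92 and 16.3 CPM against 204, 185, 72.3 and 65.0 (log2 ratio −2.56). Lower as well were Capg, an actin-capping protein (log2 ratio −3.08), Hmgn3, a nucleosome-binding protein (−2.81), and Odc1, the first enzyme of polyamine synthesis (−1.90), with Itgb8, an integrin chain, at 0 in sets 3 and 4. Maf, Hmgn3 and Itgb8 were likewise measured mostly through Cd8-negative cells, with 28, 41 and 24 UMIs in set 3 against 5, 7 and 0. Arf3, a small GTPase, was the lower call lost without the 29 cells, where its log2 ratio was −0.94. Cd28 was lower only without those cells (log2 ratio −1.92).

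In the other 13 lists no gene was called in either direction. They hold, with the number measured, tissue residence (10), effector cytokines (2), cytokine receptors (6), unconventional T cells (2), MHC class I (9) and class II presentation (4), interferon response (10), immediate early and heat shock genes (18), glucocorticoid response (9), cell division (4), survival and death (15), glycolysis (7) and cytoskeleton (18). Ifng, the gene of interferon gamma, was at 152, 218, 280 and 226 CPM against 319, 196, 101 and 44.4, so its ratio fell on either side of 1 among the sets. Itgae, the CD103 chain of resident T cells, was at 45.7, 82.96, 71.3 and 53.9 CPM against 27.4, 24.5, 25.8 and 8.66, higher in every set but under 2-fold in 1 of them. Cd69, an early activation and retention marker, had a log2 ratio of 0.28 and B2m, the light chain of MHC class I, of −0.06. Tbx21, the T-bet gene, had a log2 ratio of 0.56 and was not called. None of the naive and central memory genes had enough UMIs in every set to be tested.

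**Figure D3:**
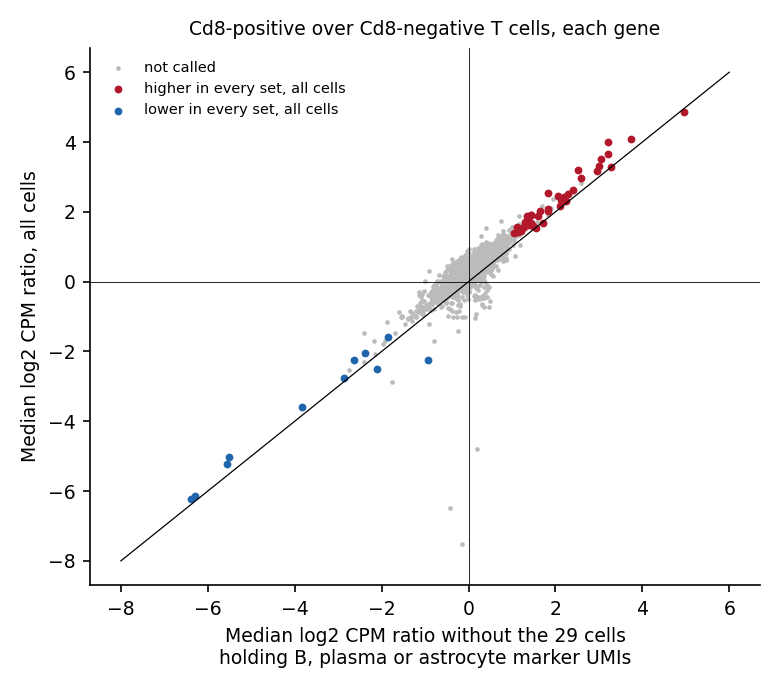
Each point is a gene, with its median log2 CPM ratio of Cd8-positive over Cd8-negative T cells in all cells on the vertical axis and without the 29 cells holding B, plasma or astrocyte markers on the horizontal axis, before any shift is taken off. Red points are the 41 genes higher and blue points the 11 lower in all cells, the line marks equal values, and the bulk of genes lies above the line by about the 0.31 of the median.

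Within the Cd8-positive cells, levels were then compared between the barcode sets, as a description of 4 libraries and not of conditions. A gene was called apart when the CPM of its highest set was at least 2-fold that of its lowest with an exact interval that left out 1. The sets compared were picked per gene, so these intervals are too narrow, and the count over all genes is the background. Of 2389 genes with enough UMIs, 530 (22.2%) were apart. Without the cells with markers of another type, and without the cell with most UMIs of each gene in each set, 303 (12.7%) were apart. Without set 1 the 530 fell to 249, and with cells thinned to 1000 UMIs to 82. The 5 genes with the largest ratios, Mt3, Sox2, C1r, Ifitm3 and Cfap126, were all highest in set 1, which held the astrocyte-marked cells, and none was among the 303. The genes named next are among the 303 unless said otherwise, and the ratios given for them are of all cells.

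Gzmm had the widest range of the killing genes, at 28.6, 159, 808 and 1088 CPM in sets 1 to 4, a ratio of 38.1 (interval 20.6 to 79.6), or 85.4 without the cells set aside. The same sets of Cd8-negative T cells stood at 42.4, 45.4, 56.8 and 35.7 CPM, and cells rich in C1q at under 1 CPM. Gzmk ran the other way, at 1106, 1227, 658 and 624 CPM, a ratio of 1.97 (1.72 to 2.24) that is under the 2-fold line. Ctsw was higher in sets 3 and 4 (452, 657, 1341 and 1168 CPM, ratio 2.97), and Gzma, also apart, stood at 77.2, 44.9, 46.4 and 32.6 CPM. Of the 41 genes higher in Cd8-positive than in Cd8-negative cells, 38 were measured between the sets and 8 were apart, a share close to the 22.2% of all genes, and 5 were among the 303. These 5 were Cd7, Ctsw, Klrc3, Lag3 and Xcl1, of which Xcl1 had a ratio of 2.08 (1.77 to 2.44). The ratio was 1.79 for Ccl5, 1.74 for Ccl4, 1.28 for Nkg7, 1.40 for Klrd1 and 1.55 for Prf1, and none of these was apart.

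Counted by cell, the same split of granzymes appears. Cells with Gzmk and no Gzmm UMI made up 78.0%, 60.3%, 28.4% and 22.6% of the Cd8-positive cells of sets 1 to 4, and cells with both 8.47%, 17.9%, 34.5% and 42.2%. Gzmm without Gzmk was seen in 1.69%, 3.85%, 15.5% and 13.0%, and neither in 11.9%, 17.9%, 21.6% and 22.2%. The exact interval of the Gzmk-only share was 65.3 to 87.7% in set 1 and 17.4 to 28.6% in set 4. With every cell thinned to 1000 UMIs the Gzmk-only shares were 64.4%, 50%, 20.7% and 21.8%, and those with both 0%, 7.69%, 15.5% and 20.1%. The order of sets 1 and 2 against sets 3 and 4 was the same at equal depth.

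S1pr1 and Lef1, genes of naive and recirculating T cells, were higher in sets 3 and 4. S1pr1, the receptor by which T cells leave tissue, had 0 UMIs in set 1 and stood at 6.91, 83.8 and 92.6 CPM in sets 2 to 4, at least 10.8-fold higher in set 4 than the level of 3 counts in set 1. Lef1, a transcription factor of naive T cells, had 0 UMIs in set 1 and stood at 6.91, 26.7 and 52.9 CPM in sets 2 to 4. Both genes also differed in other cells: in Cd8-negative T cells S1pr1 stood at 19.9, 10.5, 145 and 99.6 CPM, and in cells rich in C1q Lef1 stood at 2.15, 1.23, 18.0 and 19.6. Cells with an S1pr1 or Lef1 UMI were 0 of 59, 2 of 78, 24 of 116 and 55 of 230 Cd8-positive cells. A count of 0 of 59 allows a share of up to 6.06% (exact interval), and the shares of sets 2 to 4 were 2.56%, 20.7% and 23.9%. Thinned to 1000 UMIs they were 0%, 2.56%, 6.90% and 7.42% in sets 1 to 4. The same share was 2.48%, 1.96%, 13.3% and 13.7% in cells rich in C1q. Whether it came from free RNA or from expression by those cells was not tested, so it is not a background level. Cd8-negative T cells stood at 6.98%, 7.59%, 33.3% and 39.7%.

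**Figure D4:**
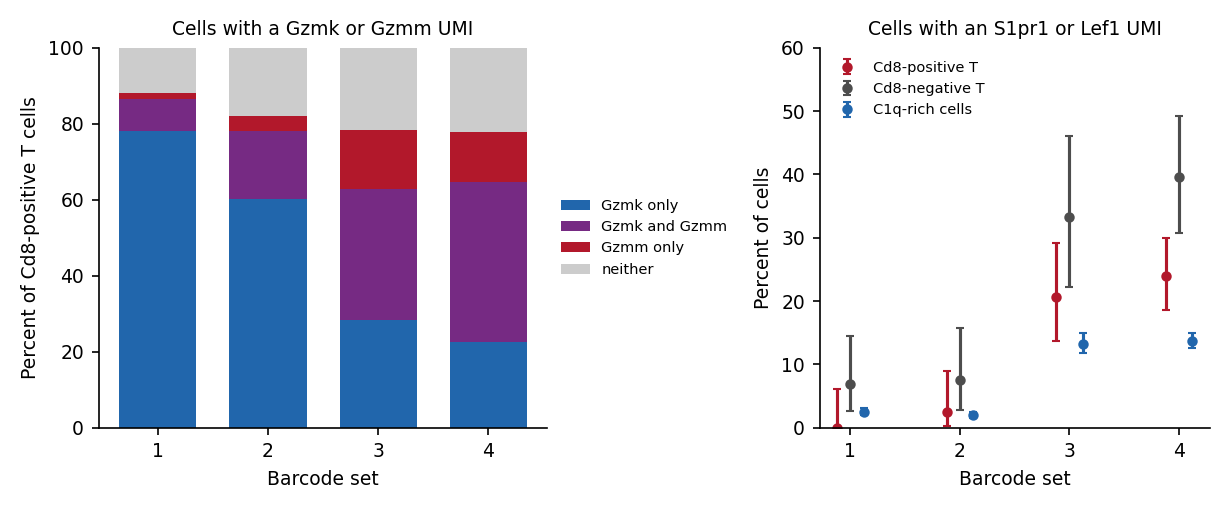
The left panel stacks the percent of Cd8-positive T cells with a UMI of Gzmk only, of both Gzmk and Gzmm, of Gzmm only or of neither in barcode sets 1 to 4, and the right panel plots the percent of Cd8-positive T cells, Cd8-negative T cells and C1q-rich cells with an S1pr1 or Lef1 UMI, with exact binomial 95% intervals. The Gzmk-only share is 78.0% in set 1 and 22.6% in set 4, and the S1pr1 or Lef1 share of Cd8-positive cells is 0% and 23.9% there.

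Of 18 measured immediate early and heat shock genes 7 were apart, and 5 without the cells set aside, against 22.2% and 12.7% of all genes. Nr4a1, Hspa1b and Dnajb1 of this list were higher in sets 3 and 4. Nr4a1, an early gene of receptor signalling, stood at 274, 394, 706 and 826 CPM, against 291, 360, 362 and 167 in Cd8-negative T cells and 877 to 977 in C1q-rich cells, and in neither of those classes were sets 3 and 4 both above sets 1 and 2. Nr4a3 stood at 45.7, 41.5, 153 and 172 CPM and Cd44, the hyaluronan receptor of activated T cells, at 57.2, 100, 178 and 169. Klrb1a, a lectin-like receptor with near-identical copies, stood at 20.01, 20.7, 114 and 135 CPM, and Lgals1, a secreted galectin, at 160, 149, 426 and 525. Heat shock genes differed in other cells too: Hspa1b stood at 126, 335, 881 and 601 CPM in Cd8-positive cells and at 2842, 3691, 7790 and 8410 in C1q-rich cells. Dnajb1, a heat shock co-chaperone, stood at 132, 283, 642 and 699 CPM and at 532, 668, 2228 and 2415 in C1q-rich cells.

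Several genes of division and interferon response were higher in sets 1 and 2. Ube2c, an enzyme of mitotic exit, stood at 234, 245, 3.57 and 28.5 CPM, from 2 UMIs in set 3. Mki67 stood at 114, 86.4, 26.7 and 35.6 CPM. Cells with at least 3 UMIs of 9 division genes were 6 of 59 (10.2%), 6 of 78 (7.69%), 2 of 116 (1.72%) and 2 of 230 (0.870%) and at most 6 cells met this in any set. The exact intervals were 3.82 to 20.8% in set 1, 2.88 to 16.0% in set 2, 0.209 to 6.09% in set 3 and 0.105 to 3.11% in set 4, so that of set 3 overlaps those of sets 1 and 2. Of 18 listed division genes 6 were measured and 5 were apart, with and without the cells set aside, against 22.2% and 12.7% of all genes. Ube2c reached the minimum of 50 UMIs almost only through its highest set, so being measured almost fixed its being apart.

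Isg15, an interferon-induced ubiquitin-like protein, stood at 200, 176, 46.4 and 58.0 CPM, and it was also higher in these sets in Cd8-negative T cells (326, 234, 31.0 and 27.1) and in C1q-rich cells (34.7, 26.0, 7.80 and 8.49). Bst2, another interferon-induced gene, stood at 369, 169, 78.5 and 92.6 CPM in Cd8-positive cells. Among interferon genes 8 of 10 measured were apart, and 4 of 10 without the cells set aside, against 22.2% and 12.7% of all genes. The 4 inhibitory genes that were apart differed in direction. Lag3 stood at 286, 370, 168 and 118 CPM (ratio 3.13, interval 2.39 to 4.11) and was also higher in sets 1 and 2 in Cd8-negative T cells, and Tox stood at 240, 287, 132 and 125. Ctla4 was highest in set 2 alone (68.6, 159, 55.3 and 58.0 CPM), and Nr4a3 was higher in sets 3 and 4, as given above. Prdm1, the gene of the repressor Blimp-1, stood at 280, 436, 166 and 132 CPM. Tnfrsf9, the activation receptor 4-1BB, is in no list and was chosen after its values were seen, at 140, 190, 8.92 and 10.2 CPM. Rgs2, a regulator of G protein signalling, stood at 415, 764, 317 and 279 CPM, while in C1q-rich cells it stood at 347, 460, 514 and 548.

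**Figure D5:**
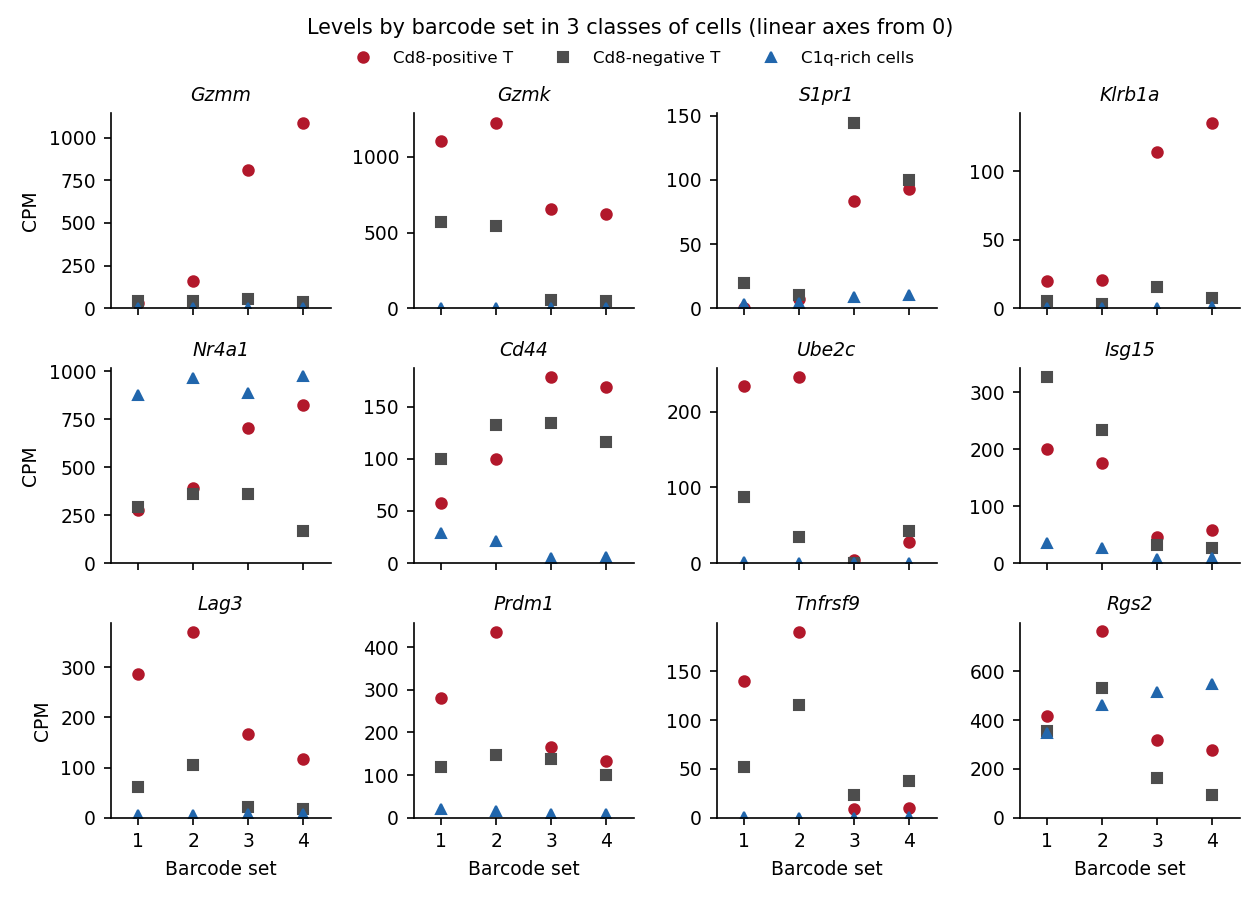
CPM of 12 genes in barcode sets 1 to 4, on linear axes from 0, in Cd8-positive T cells (circles), Cd8-negative T cells (squares) and C1q-rich cells (triangles). Gzmm of Cd8-positive cells reaches 808 and 1088 CPM in sets 3 and 4 while the other classes stay under 60, and Isg15 is higher in sets 1 and 2 in all 3 classes.

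How far such differences were shared with other cells was counted for the 303 genes. Of these, 31.7% were at least 2-fold the same way between the same sets in Cd8-negative T cells and 18.7% in C1q-rich cells, against 13.3% and 5.02% of all measured genes. What differs between the libraries for every cell type and what differs for Cd8-positive cells cannot be told apart for those genes. Among the 23 lists, tissue residence had 8 of 9 measured genes apart (6 without the cells set aside) and inhibitory receptors 4 of 6. MHC class II presentation had 3 of 4 and glycolysis 5 of 7, each with 2 without the cells set aside. Naive genes had 2 of 3, S1pr1 and Lef1, for which being measured fixed the result. Of all genes 22.2% were apart, and 12.7% without the cells set aside. Tissue residence genes differed in direction, with Cd44 higher in sets 3 and 4 and Prdm1 and Rgs2 in sets 1 and 2. The median log2 ratio of highest over lowest set was 2.63 for naive genes, 2.17 for interferon response and 1.88 for cell division. It was 1.45 for tissue residence, 1.40 for helper and regulatory genes, 1.36 for inhibitory receptors and 0.64 over all measured genes. Cells with an Itgae, Itga1 or Cxcr6 UMI, genes of resident T cells, were 28.8%, 33.3%, 40.5% and 33.5% of Cd8-positive cells in sets 1 to 4, with overlapping intervals. Over all sets this share was 34.6% against 15.9% of Cd8-negative cells, and 10.4% against 5.57% with cells thinned to 1000 UMIs.

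A small set of Cd8-positive cells lacked the effector markers. Of the 483 cells 463 held a Ccl5 or Gzmk UMI, 17 held neither but a UMI of Ccr7 or Lef1, and 3 held none of these. All 17 held a Lef1 UMI. The 17 cells stood as 0, 1, 6 and 10 in sets 1 to 4, so they were compared with the 463 over all sets summed, and set and gate are not balanced. The 17 were deeper, with a median of 5857 UMIs against 3771, and their sum of 105873 UMIs is small. Of 6718 genes measured 617 (9.18%) were at least 2-fold higher in the 463 cells and 148 (2.2%) lower, and 557 and 85 of these remained without the cell with most UMIs of each gene. Genes entered with 20 UMIs over both gates, of which the 463 cells held 2064565 of the UMIs and the 17 cells 105873. The split between higher and lower depended on this minimum. It was 617 and 105 at 50 UMIs, and 617 and 201 at 1 UMI. The list counts below rest on the minimum of 20. Without set 4 there were 326 higher genes, and without the cells with markers of another type 573 higher and 146 lower. The median log2 ratio of all genes was 0.19, and 0.02 with TMM scaling. Called genes were higher in 80.7% of cases, 67.5% with TMM scaling (445 higher, 214 lower) and 54.2% with cells thinned to 1000 UMIs (91 and 77). Log2 ratios below have the 0.19 taken off. The genes of the gate are no result of it.

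Most measured genes of killing were higher in the cells with Ccl5 or Gzmk. Nkg7 had 2323 UMIs in them and 0 in the 17 cells, at least 39.7-fold higher than the level of 3 counts. Prf1 stood at 272 against 28.3 CPM, from 561 and 3 UMIs (ratio interval 3.26 to 46.6), and Ifng had 494 UMIs against 0. Of the killing genes 7 of 10 measured were higher, and of the killer lectin-like and NK receptors 8 of 13. Of the chemokines 4 of 6 were higher, and 0 were lower in each of these lists. The background for all list counts of this comparison is 9.18% higher and 2.2% lower among all genes measured. The cells with Ccl5 or Gzmk held 2064565 UMIs against 105873 in the 17 cells. Most genes thus reached the minimum of 20 UMIs mainly through the former, so a count of 0 lower says little. Ccl4 stood at 15894 against 538 CPM (log2 ratio 4.69) and Ccl3 at 5374 against 349 (3.75), and the part of free RNA in the level of the 17 cells was not tested. Of 13 tissue residence genes 7 were higher, among them Prdm1 (447 UMIs against 0) and Itgae (133 against 0), and 2 were lower, Vps37b and Rgs10. Higher too were 4 of 8 inhibitory genes, among them Lag3.

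Of transcription factors, 9 of 20 measured were higher, among them Id2, a driver of effector differentiation (743 against 28.3 CPM, log2 ratio 4.52), and Hopx (458 against 28.3, from 1 of the 17 cells). Immediate early and heat shock genes were higher in 13 of 19. For both lists the background is 9.18% higher among all genes measured. Bcl2a1, a survival factor, and Nr4a2, a nuclear receptor of activated T cells, had log2 ratios of 5.58 and 4.79, each against 2 UMIs in the 17 cells. Ifi27, an interferon-induced gene, had a log2 ratio of 4.70 against 1 UMI in the 17 cells, with an unshifted ratio interval of 5.34 to 1181.

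The 17 cells were higher in genes of naive T cells. Of the naive and central memory list, 6 genes other than the gate genes were measured. Of these 4 were higher in the 17 cells and 0 in the 463. Of all genes measured 2.2% were higher in the 17 cells and 9.18% in the 463. S1pr1 stood at 519 CPM in the 17 cells, 14 of which held a UMI, against 41.2 CPM in the 463 (log2 ratio −3.85, interval of the unshifted ratio 0.0558 to 0.113). Tcf7, a transcription factor of naive and memory T cells, stood at 56.7 against 6.78 CPM, and Myb, a transcription factor, at 66.1 against 7.27, from 6 and 7 UMIs. Satb1, a chromatin organiser of T cells, stood at 170 against 76.0 CPM.

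Plac8 was seen in all 17 cells, at 2399 CPM, against 98.3 CPM in the 463 (log2 ratio −4.80). Its product is a small cysteine-rich protein, and the gene also stands in the list of border macrophage and monocyte markers. Rab3ip, which encodes a guanine nucleotide exchange factor, stood at 236 against 4.84 CPM, in 11 of 17 and 6 of 463 cells. Art2b, a T cell surface ADP-ribosyltransferase of the rat, stood at 208 against 15.02 CPM, and Dus2, a tRNA-modifying enzyme, at 113 against 9.20. In the 463 cells Gzmm was higher than in the 17 (756 against 170 CPM), where 1 cell held 66.7% of its 18 UMIs.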

How the data were processed

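Single cells of hippocampus were counted in 1 matrix of the whole series. The values are counts of UMIs per gene and barcode, not normalized, as deposited. Per the file headers the matrix was made with Cell Ranger 5.0.0, and per the submitters' processing notes with Cell Ranger and STAR on Rnor_6.0; the annotation is not given in the sources used here. Every barcode in the deposited matrix had at least 500 UMIs.

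Cells, genes and intervals were handled with Python 3.11.15, numpy 2.4.6, scipy 1.17.1 and pandas 2.3.3, TMM factors came from edgeR 4.0.16, and doublets were called with Scrublet in scanpy 1.11.5 (expected share 6%) but kept. UMIs were summed per class and set and scaled to CPM. A ratio was called at 2-fold with an exact conditional binomial 95% interval that leaves out 1, over genes with at least 20 UMIs of both classes in every set (gates: 20 over all sets summed, since no set had 15 cells in both gates) or 50 UMIs over 2 sets. A zero was taken at 3 counts in ratios. Count tests between samples were not run, since the sets are tied to no titled sample, and no mean or SD was formed over sets. The scripts were tested on simulated data.

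The cells, the 23 gene lists and the 17 marker lists were chosen with earlier results of these data known. Named were the markers, the 3 called members of each list with the largest ratios (the 2 most abundant where none was called), the 10 highest and 10 lowest calls, called list members between sets and gates, and the 5 most extreme calls there. Alternatives changed the Cd3, Cd8, exclusion and cell filters, doublets, scaling, depth, UMI minimum, ratio, interval rule and sets. Leaving out cells over 20000 UMIs, each gene's top cell or cells of another type was added after seeing the data. Some genes, 1 of them planned for the gate of naive cells, are not reported here; the gate used Ccr7 or Lef1 and held the same cells with or without that gene.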

Additional observations from a re-analysis of the deposited data

How the results depend on the processing

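No called gene changed its direction, while some log2 ratios near 0 that were not called changed sign, such as B2m (0.25 before the shift, −0.04 with TMM scaling). The share of kept cells, 1.67%, was 1.45% with at least 2 Cd8 UMIs, 1.32% with at most 1 UMI of each excluded gene group and 2.18% with at least 1000 UMIs and at most 10% mitochondrial UMIs, and without single sets it ranged from 1.26 (set 4) to 1.96% (set 2), with 1.90% without set 1. The share of T cells, 58.2%, was 54.7% with at least 2 Cd8 UMIs, 61.9% without set 1 and 52.3% without set 4. The 41 higher genes became 27 under the strict exclusion, 27 with TMM scaling, 11 with cells thinned to 1000 UMIs, 25 at 50 UMIs, 69 without set 2 and 24 without cells of another type. The 11 lower genes became 3 thinned, 4 at 50 UMIs, 18 at 1 UMI, 24 without set 2, 17 without set 4 and 17 without cells of another type. The 530 genes apart became 336 under the strict exclusion, 82 thinned, 1318 at 20 UMIs and 249 without set 1. The 617 higher gate genes became 387 under the strict exclusion, 91 thinned and 326 without set 4. The 148 lower gate genes became 77 thinned, 228 at 1.5-fold and 86 without each gene's top cell. Fewer genes were tested when cells were thinned or the UMI minimum raised; otherwise the cause was not tested. The rule of an interval in at least 2 sets was not run for the gates, which sum over sets. No paired analysis was possible because the titled samples have 1 library each and no set is tied to a title; the T cell classes were compared as ratios within each set, and the sets were not used as replicates. Depth limits genes under about 20 UMIs per set, and the 17 cells without effector markers hold few UMIs.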
